A study of Mus musculus with 18 samples.

Results

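The genes described here are the mouse Wnt ligands, the Frizzled receptors and the coreceptors *Lrp5* and *Lrp6*, measured in whole perinatal lung after deletion of *Scap* or of *Insig1* and *Insig2*. They were taken by symbol as the complete families: 19 Wnt genes, 10 Frizzled genes and 2 LRP genes, 31 of the 19938 genes that had a probe set with a single gene symbol. Of the 31, 30 passed the filter on low values and were tested. *Wnt8b* did not pass.

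RNA was hybridised to 18 Mouse Gene 1.0 ST arrays in 6 groups of 3. SCAP is the escort protein that sterol regulatory element-binding proteins (SREBPs) need for activation, and INSIG1 and INSIG2 are the endoplasmic reticulum proteins that hold SCAP back. ScapΔ/Δ lungs carried floxed *Scap* alleles, SP-C-rtTA (a doxycycline-dependent transactivator driven by a surfactant protein C promoter) and a tetO-driven Cre. Their controls were *Scap* flox/flox littermates without rtTA or without Cre. Both were collected at E18.5 and at PN1, which is the day of birth. *Insig1/2*Δ/Δ lungs carried floxed *Insig1*, the same pair of transgenes and a germline *Insig2*-/- background, and were collected at E17.5. Their controls lacked rtTA or Cre and were also *Insig2*-/-, so *Insig2* did not differ in this comparison. In both lines only the deleted lungs carried both transgenes. Gene deletion and the presence of both transgenes therefore cannot be told apart. All dams received doxycycline chow for a window of gestation that ended well before the lungs were collected. Deletion was therefore directed to cells with surfactant protein C promoter activity in that window, while the RNA came from all cells of the lung. The *Scap* mice were of mixed strain background. The study called its replicates biological. Whether each array held the RNA of 1 lung is not given in the sources used here, and p-values measure the spread between these arrays. Arrays are named below as in the labels, C for control and KO for deleted, with their number: C7 to C9 and KO10 to KO12 at E18.5, C13 to C15 and KO16 to KO18 at PN1, and C19 to C21 and KO22 to KO24 in the Insig line. ScapΔ/Δ arrays from E17.5 were not analysed here.

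Wnt proteins are lipid-modified secreted ligands. PORCN attaches the lipid and WLS carries the ligand to the cell surface. Frizzled proteins are the seven-pass receptors that bind them. When a Wnt also engages LRP5 or LRP6, the complex that marks β-catenin for destruction is inactivated, and β-catenin enters the nucleus to act with TCF and LEF factors on targets such as *Axin2*. *Wnt5a* and *Wnt11* are best known for signalling without β-catenin, through ROR receptors and the planar polarity proteins. In the developing lung, WNT2 and WNT2B from the mesoderm specify the lung endoderm, WNT7B from the epithelium supports growth of the mesenchyme and its vessels, and WNT5A takes part in the branching of the airways.

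The deposited values were log2 expression values between 3.09 and 14.05 over all probe sets. The median of an array was 7.42 to 7.499 on 16 arrays, 7.67 on KO17 and 7.70 on KO18. KO17 and KO18 correlated at 0.9926 with each other and at 0.8709 to 0.9212 with the other 16, which correlated at 0.9432 to 0.9968 among themselves. The lower quartile was 6.21 on KO17 and 6.22 on KO18, against 5.71 to 5.90 on the other 16. The upper quartile was 9.19 and 9.20, against 9.28 to 9.36, so values on these 2 arrays were compressed from both sides. These 2 arrays therefore stood apart from the rest, the third PN1 deleted array KO16 included. The PN1 differences of the Wnt and Frizzled genes named there are also given without them. The part of the compression in those differences was not tested. The 6 Insig arrays fell into 2 sets that crossed the genotype, C19, C20 and KO22 against C21, KO23 and KO24. The *Scap* probe set read 9.22 to 9.47 on KO10 to KO12 against 9.71 to 9.75 on C7 to C9, and 9.53 to 9.65 on KO16 to KO18 against 9.76 to 9.92 on C13 to C15. *Insig1* read 8.21 to 8.58 on the deleted Insig arrays against 9.29 to 10.002 on their controls. The targeted gene was thus lower on every deleted array, and in each case some signal was left. The lung markers *Sftpc* (13.28 to 13.50) and *Nkx2-1* (10.70 to 11.23) were high on all 18 arrays.

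Promoter sequence was at hand for 21 of the 31 genes, in 24 windows of 300 bases, each running from 250 bases before to 50 bases after an annotated start (RefSeq, GRCm38.p6). The 3 windows below belong to the ligands on which the results turn: *Wnt9a* had the smallest p at E18.5 and passed the test between the ages, *Wnt11* had the largest called change at birth in control lungs, and *Wnt7a* had the largest difference at PN1. Capitals mark a motif match on either strand. *Wnt9a* lies on chromosome 11, and its window is chr11:59306680-59306979 on the plus strand. *Wnt11* lies on chromosome 7, with the window chr7:98834862-98835161 on the plus strand. *Wnt7a* lies on chromosome 6, with the window chr6:91411304-91411603 on the minus strand. The windows are written 5′ to 3′ along the gene.
Wnt9a: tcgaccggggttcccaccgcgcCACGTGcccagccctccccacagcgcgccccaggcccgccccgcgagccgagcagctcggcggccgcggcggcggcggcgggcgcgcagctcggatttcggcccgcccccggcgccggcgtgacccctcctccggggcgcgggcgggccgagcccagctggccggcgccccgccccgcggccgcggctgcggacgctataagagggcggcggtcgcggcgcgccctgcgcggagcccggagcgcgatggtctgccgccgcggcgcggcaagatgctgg
Wnt11: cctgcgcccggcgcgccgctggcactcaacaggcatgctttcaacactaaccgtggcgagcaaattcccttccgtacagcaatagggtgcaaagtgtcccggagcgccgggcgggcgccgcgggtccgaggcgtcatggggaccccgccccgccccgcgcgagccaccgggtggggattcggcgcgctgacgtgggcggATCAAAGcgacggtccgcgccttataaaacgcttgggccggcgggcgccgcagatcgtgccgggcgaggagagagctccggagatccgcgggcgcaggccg
Wnt7a: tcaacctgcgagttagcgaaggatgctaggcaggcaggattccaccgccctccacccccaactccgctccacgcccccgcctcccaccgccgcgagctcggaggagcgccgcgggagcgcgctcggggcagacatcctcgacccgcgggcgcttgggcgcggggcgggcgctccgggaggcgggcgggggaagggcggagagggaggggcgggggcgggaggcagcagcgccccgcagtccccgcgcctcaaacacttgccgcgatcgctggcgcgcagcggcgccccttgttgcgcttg

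Each window was searched on both strands for TCACNCCAC, a sterol response element bound by SREBPs, for the E-box CACGTG, which reads the same on both strands, and for CTTTGAT and CTTTGTT, the core of TCF and LEF sites, which differ in 1 letter. No window of these families held the sterol element, and 1.24% of all 32851 RefSeq mouse windows did. The E-box was present in 2 of the 24 windows (8.33%, against 7.15% of all windows), those of *Wnt9a* and *Fzd9*. In *Wnt9a* it began at position -228 from the start. CTTTGAT was present in the windows of *Wnt11*, where it lies on the minus strand at -51 and appears above as ATCAAAG, and of *Wnt5b*. CTTTGTT was present in those of *Fzd7* and *Wnt3*. All windows held these motifs at 3.73% and 5.85%. The window of *Wnt7a* held none of the motifs, as did the second window of *Wnt11*. Matches are letters in these windows and were not set against binding.

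On the log2 scale of the arrays, 26 of the 31 genes lay above the 35th percentile of the array on all 18 arrays. *Wnt1*, *Wnt3*, *Wnt8a* and *Wnt16* did so on 15 to 17 arrays. *Wnt8b* read 6.06 to 6.42 and did so on none. Values of different probe sets cannot be compared with each other, so each gene is described only against itself. Between its lowest and highest array, *Wnt7a* spanned 1.46 log2 units, *Wnt5a* 1.33, *Wnt4* 1.20, *Lrp6* 1.17 and *Fzd2* 1.14, while *Fzd6* spanned 0.33. *Wnt5a*, the ligand of ROR2, was highest in the Insig line at E17.5, with means of 9.76 ± 0.24 in controls and 9.45 ± 0.28 in deleted lungs (SD, n = 3). Its means in the *Scap* line were 8.80 to 9.21. Line and age cannot be told apart in that contrast, and it was not tested. *Wnt7a* was highest in PN1 controls at 8.82 ± 0.03 and lowest in PN1 deleted lungs at 7.94 ± 0.70, the latter spread being set by KO16 at 8.72 against 7.69 and 7.39.

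**Figure D1:**
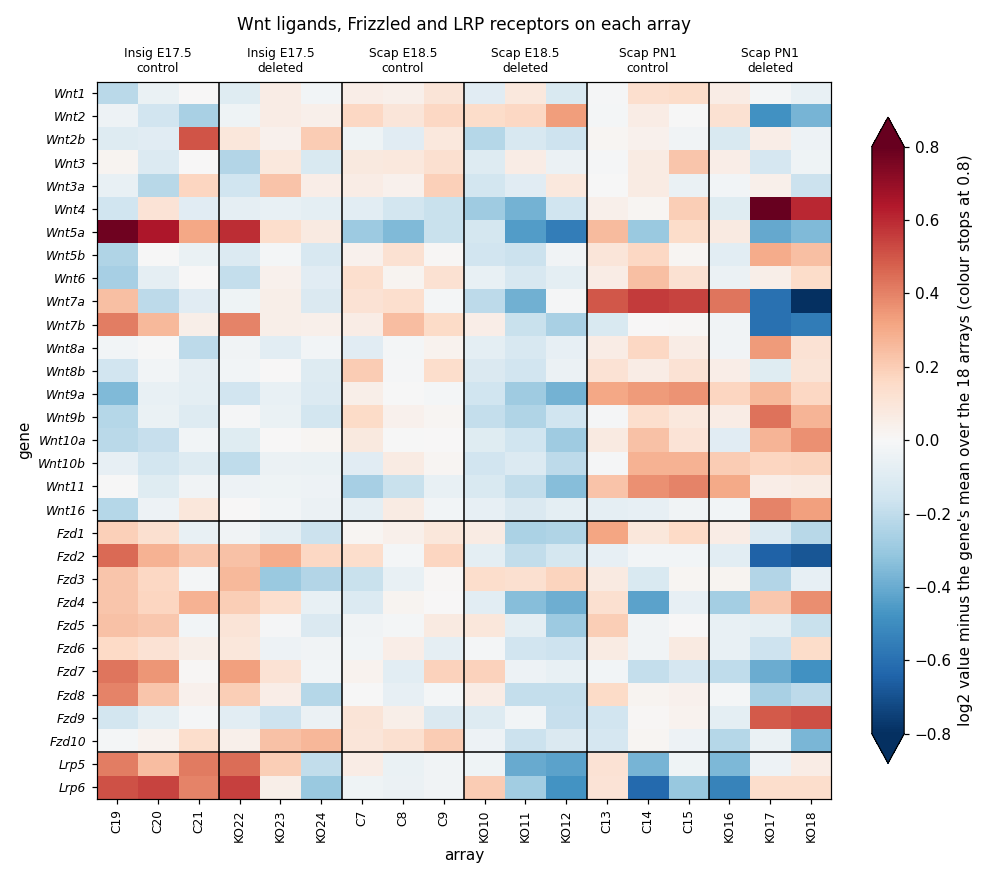
Heat map of the 31 genes (rows, by family) on the 18 arrays (columns, by group), coloured by log2 expression minus the gene's mean over the 18 arrays. KO17 and KO18 carry the lowest values of *Wnt7a* (7.69 and 7.39) and of *Fzd2* (9.88 and 9.84), while KO16 reads 8.72 and 10.44.

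The first comparison asks how the families differed between ScapΔ/Δ and control lungs at E18.5, shortly before birth. No ligand or receptor passed the adjusted threshold of 0.05, in a comparison in which 0.00880% of the 22717 probe sets did. The differences were small and mostly below 0. Of the 30 genes, 28 were lower on average in deleted lungs (27 after median centring of the arrays, 28 after quantile normalization), where 58.3% of all probe sets were. Their median difference was -0.15 on the log2 scale, against -0.04 over all probe sets. The 3 deleted arrays lay wholly below the 3 controls in 11 of 30 genes (36.7%, against 21.1% of all probe sets) and wholly above in 1 (3.33%, against 14.5%). At an unadjusted p under 0.05 there were 5 genes (16.7%, against 9.23%), *Wnt9a*, *Wnt9b*, *Wnt6* and *Fzd10* below and *Fzd3* above.

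Among the ligands, 17 of 18 had a difference below 0 and 9 were lower on every deleted array. A second *Wnt4* probe set stood at 0.02, against -0.14 for the one counted here, and the groups overlapped in both. *Wnt9a*, a ligand best known from joint and skeletal development, read 8.38, 8.33 and 8.32 on C7 to C9 and 8.18, 8.06 and 7.96 on KO10 to KO12. The groups did not overlap, and the difference of -0.28 (SE 0.08, 1.22-fold lower) had an unadjusted p of 0.00332 and an adjusted p of 0.51 in limma. *Wnt9b*, which patterns the developing kidney, read 8.02, 7.90 and 7.89 in controls and 7.68, 7.63 and 7.71 in deleted lungs. All 3 deleted values were again lower, by -0.26 (SE 0.10, adjusted p = 0.511, limma). *Wnt7b*, the epithelial ligand, read 8.49, 8.68 and 8.58 in controls. In deleted lungs it read 8.49, 8.25 and 8.17. KO10 lay just under the lowest control here, and the difference was -0.28 (SE 0.15, adjusted p = 0.566, limma). The spread behind these SE and p-values was estimated with the PN1 arrays included. Without KO16, a PN1 array, the 3 differences were unchanged. Their adjusted p in limma was then 0.0662 for *Wnt9a*, 0.0733 for *Wnt9b* and 0.092 for *Wnt7b*. These were the lowest values on leaving out single arrays, the highest was 0.984, and none gave a call.

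The remaining ligands whose groups separated were *Wnt10a* (-0.21), *Wnt6* (-0.18), *Wnt5b* (-0.17), *Wnt2b* (-0.16), *Wnt10b* (-0.15) and *Wnt3* (-0.13), with adjusted p from 0.54 to 0.628. *Wnt2*, the mesenchymal ligand, was the only one with a difference above 0, at 0.07 (SE 0.14), and its groups overlapped. *Wnt3* (6.63 to 6.86) and *Wnt10b* (6.83 to 7.10) read near the lower edge of the tested range on these arrays. The 35th percentile was 6.43 to 6.56 on the 16 arrays other than KO17 and KO18. Averaged over the 18 ligands and set against the mean of the controls, the log2 level was -0.13 on KO10, -0.17 on KO11 and -0.15 on KO12, and within 0.02 of that mean on the 3 controls. All 3 deleted arrays thus contributed alike to the shift of the ligands. The 4 mesothelial markers were also all below 0, with a median of -0.21 and array means of -0.18, -0.25 and -0.20 on KO10, KO11 and KO12. The 14 lung epithelial markers averaged -0.14, -0.14 and -0.08 on the same arrays, with 8 below 0, 6 above and a median of -0.06. The part of either list in the ligand values was not tested.

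The receptors were less even. Of the 10 Frizzled genes, 9 had a difference below 0 (8 after centring), but only *Fzd2* and *Fzd10* were lower on every deleted array and *Fzd3* was higher on every one. *Fzd10* read 7.93, 7.96 and 8.04 in controls and 7.80, 7.66 and 7.72 in deleted lungs. Its difference was -0.25 (SE 0.09, unadjusted p 0.019, adjusted p = 0.51 in limma). *Fzd2*, a receptor of WNT5A among others, read 10.67, 10.51 and 10.69 in controls and 10.45, 10.33 and 10.38 in deleted lungs. The *Fzd2* difference was -0.24 (SE 0.14, adjusted p = 0.586, limma). Without KO16 it was unchanged, with an SE of 0.06 and an adjusted p of 0.0749 in limma. *Fzd3*, known for its part in planar polarity and axon guidance, read 7.76, 7.88 and 7.94 in controls. In deleted lungs it read 8.08, 8.07 and 8.11, a difference of 0.23 (SE 0.09, adjusted p = 0.535, limma). Across the Frizzled list KO10 stood at 0.00 from the control mean, KO11 at -0.15 and KO12 at -0.18.

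The coreceptors split the deleted arrays in the same manner. *Lrp5* read 10.31, 10.20 and 10.22 in controls and 10.21, 9.85 and 9.82 in deleted lungs, and *Lrp6* read 10.17, 10.16 and 10.18 against 10.41, 9.93 and 9.73. KO10 lay among the controls for *Lrp5* and above them for *Lrp6*, whereas KO11 and KO12 were below. The differences were -0.28 (SE 0.16, adjusted p = 0.574) and -0.15 (SE 0.23, adjusted p = 0.831), both in limma. Endothelial markers were also nearest the controls on KO10, but lowest on KO11. Their array means were -0.03, -0.23 and -0.19 from the control mean on KO10, KO11 and KO12. Of these markers 7 of 7 were below 0 (6 after centring), with a median of -0.16. Fibroblast markers averaged 0.06, -0.02 and -0.23 on the same arrays, with 6 of 9 below 0. The part of either list in the receptor values was not tested. In whole lung, fewer cells of a type and less RNA per cell cannot be told apart.

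**Figure D2:**
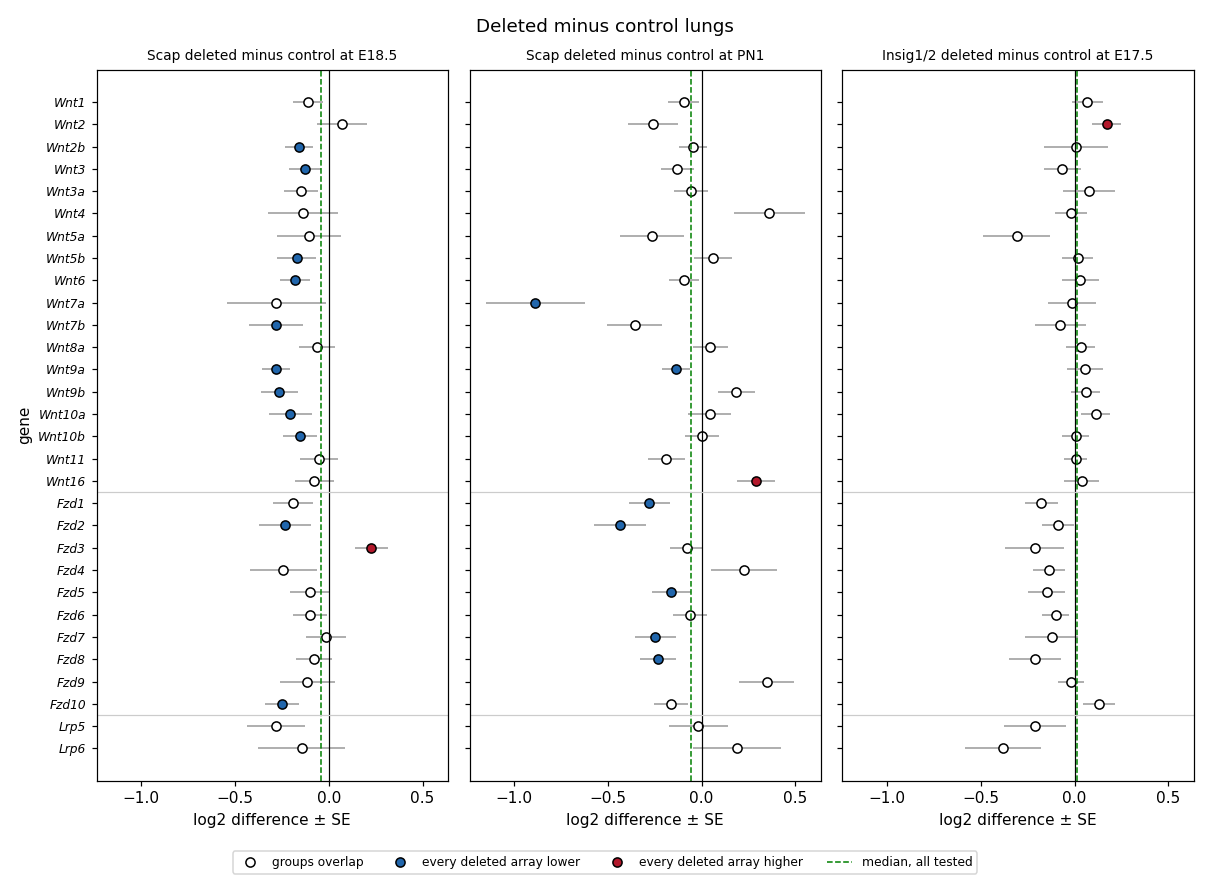
Log2 difference, deleted minus control, with its standard error for the 30 tested genes in the 3 deletion comparisons, the dashed line being the median of all tested probe sets (-0.04 at E18.5). No gene reached an adjusted p of 0.05 in any panel, and at E18.5 the points of 28 genes lie below 0.

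The second comparison took the same genotypes at PN1, on the day of birth. Again no gene of these families was called, and 0.00880% of all probe sets were. The families did not shift as a whole: 20 of 30 genes were below 0 (24 after centring, 21 after quantile normalization), against 57.9% of all probe sets, with a median of -0.09 against -0.06. At an unadjusted p under 0.05 there were 8 genes (26.7%, against 32.3% of all probe sets), namely *Wnt7a*, *Wnt7b*, *Fzd1*, *Fzd2*, *Fzd7* and *Fzd8* below and *Wnt16* and *Fzd9* above. The deleted arrays lay wholly below the controls in 7 genes (23.3%, against 11.1%) and wholly above in 1 (3.33%, against 5.58%). Because KO17 and KO18 had higher medians, centring moved the median of all probe sets from -0.06 to -0.19.

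*Wnt7a*, a ligand that the lung epithelium expresses, differed most. It read 8.79, 8.85 and 8.83 on C13 to C15 and 8.72, 7.69 and 7.39 on KO16 to KO18. KO16 was just below the lowest control, and KO17 and KO18 were far below. The difference was -0.89 (SE 0.26, 1.85-fold lower, adjusted p = 0.0912 in limma), lower than all but 1.12% of probe sets. Without KO16 it was -1.28 with an adjusted p of 5.64e-06, and without KO17 and KO18 it was -0.10. The *Wnt7a* difference therefore rested on those 2 arrays.

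*Fzd2* repeated this arrangement. It read 10.46, 10.50 and 10.50 in controls and 10.44, 9.88 and 9.84 in deleted lungs, so that KO16 lay just under the controls and the other 2 well below. The difference was -0.44 (SE 0.14, 1.35-fold lower, adjusted p = 0.0925 in limma), -0.63 without KO16 (adjusted p = 2.51e-05) and -0.05 without KO17 and KO18. *Fzd1*, an activator of β-catenin signalling, read 10.71, 10.48 and 10.55 in controls. In deleted lungs it read 10.45, 10.28 and 10.17, all below the lowest control, a difference of -0.28 (SE 0.11, adjusted p = 0.12, limma). *Fzd7* (-0.25), *Fzd8* (-0.23), *Fzd5* (-0.16) and *Wnt9a* (-0.14) were also lower on every deleted array. Without KO17 and KO18 the differences were -0.13 for *Fzd1*, -0.09 for *Fzd7*, -0.09 for *Fzd8*, -0.12 for *Fzd5* and -0.16 for *Wnt9a*.

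*Wnt16* was the one gene higher on every deleted array. It read 6.55, 6.55 and 6.59 in controls and 6.60, 7.01 and 6.95 in deleted lungs, with KO16 again next to the controls. Its difference of 0.29 (SE 0.10, adjusted p = 0.103 in limma) was 0.08 after quantile normalization and 0.04 without KO17 and KO18, and its probe set lay near the lower edge of the tested range. *Wnt4*, which acts in mesenchymal to epithelial conversion, read 8.12, 8.09 and 8.27 in controls and 7.98, 8.90 and 8.68 in deleted lungs. A second *Wnt4* probe set went the other way, at 7.83, 8.20 and 8.16 against 8.16, 7.92 and 7.57. The first probe set gave a difference of 0.36, and -0.18 without KO17 and KO18. The direction of *Wnt4* at PN1 thus depended on the probe set and on these arrays.

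Leaving out KO16 gave 14 called genes of 30 (46.7%), in a fit that called 61.7% of all probe sets. The 9 that were lower were *Wnt2*, *Wnt5a*, *Wnt7a*, *Wnt7b*, *Wnt11*, *Fzd1*, *Fzd2*, *Fzd7* and *Fzd8*. The 5 that were higher were *Wnt4*, *Wnt9b*, *Wnt16*, *Fzd4* and *Fzd9*. Beside *Wnt7a* and *Fzd2* their differences ran from -0.54 (*Wnt7b*) to 0.63 (*Wnt4*). Without KO17 and KO18 no gene was called, and *Wnt2* (0.11), *Wnt5a* (0.04), *Wnt7b* (0.01), *Wnt9b* (-0.01), *Fzd4* (-0.15) and *Fzd9* (-0.04) had the opposite sign or lay near 0. Some cell type markers moved with KO17 and KO18 as well. Against the control mean, the 14 lung epithelial markers averaged -0.10 on KO16, -0.41 on KO17 and -0.42 on KO18, and the 5 macrophage markers -0.03, -0.64 and -0.59. Mesothelial markers averaged -0.20, 0.43 and 0.04, fibroblast markers -0.16, -0.13 and -0.06, and endothelial markers -0.17, -0.04 and -0.03. Of the epithelial markers 11 were below 0 (14 after centring), with a median of -0.17. Their part in the Wnt and Frizzled values was not tested.

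**Figure D3:**
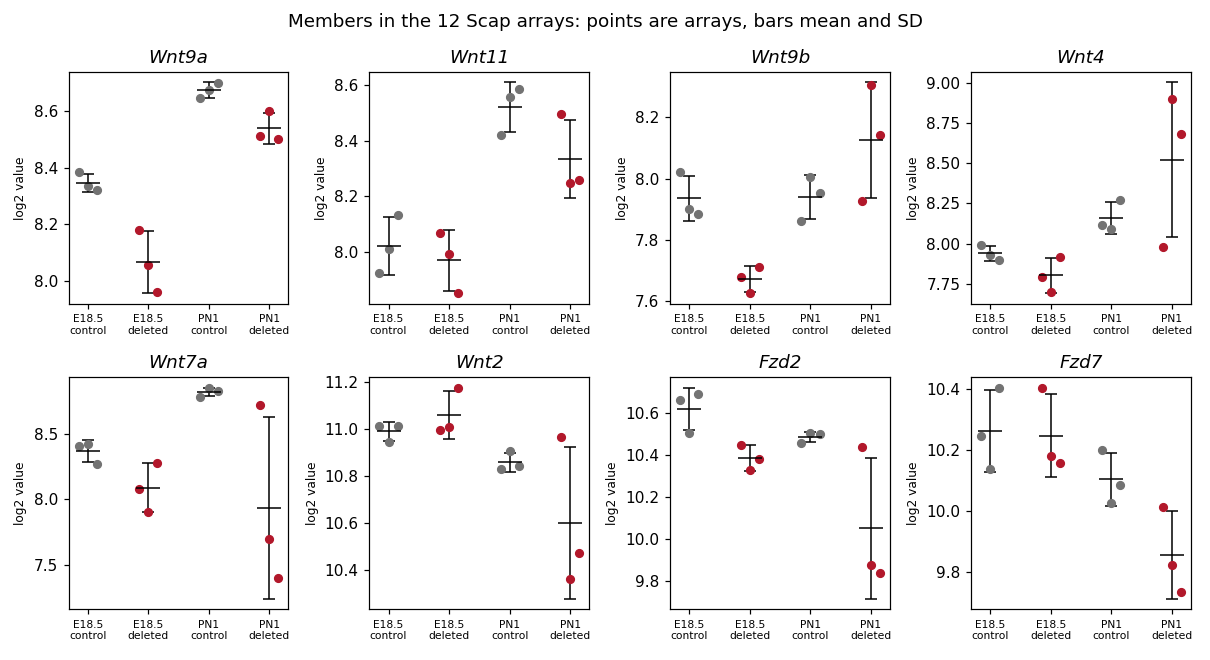
Log2 expression of *Wnt9a*, *Wnt11*, *Wnt9b*, *Wnt4*, *Wnt7a*, *Wnt2*, *Fzd2* and *Fzd7* on the 12 *Scap* arrays, each point an array and each bar the group mean with its SD (n = 3). At PN1 the deleted group is spread wide for *Wnt7a* (8.72, 7.69 and 7.39) and *Fzd2* (10.44, 9.88 and 9.84), while *Wnt9a* and *Wnt11* lie higher at PN1 than at E18.5 in both genotypes.

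The third comparison set *Insig1/2*Δ/Δ lungs of E17.5 beside those of their controls, a model in which SREBPs are released from restraint. No gene of these families passed the adjusted threshold, and 0% of all probe sets did in limma. At an unadjusted p under 0.05 there was also none, against 4.10% of all probe sets. No gene was lower on every deleted array (4.16% of all probe sets were), and 1 was higher on every deleted array (3.33%, against 5.89%). That gene was *Wnt2*, which read 10.81, 10.69 and 10.59 on C19 to C21 and 10.81, 10.90 and 10.89 on KO22 to KO24. KO22 lay within 0.01 of C19, and the difference was 0.17 (SE 0.08, adjusted p = 0.758, limma). The ligands had a median of 0.02, against 0.02 over all probe sets, with 13 above 0 and 5 below.

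The Frizzled receptors had 9 of 10 differences below 0, against 45.0% of all probe sets. Their median was -0.13 against 0.02, and none had separate groups. *Lrp6* read 10.72, 10.75 and 10.60 in controls and 10.75, 10.25 and 9.91 in deleted lungs, a difference of -0.38 (SE 0.20, adjusted p = 0.758, limma). *Lrp5* read 10.66, 10.50 and 10.67 against 10.70, 10.44 and 10.05, a difference of -0.21 (SE 0.16). In both coreceptors KO22 was at the level of the controls and KO24 was lowest.

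The 2 sets of Insig arrays were read from the values of these same arrays, and no label names them. Separation by set is therefore description and not a test. Of the Frizzled receptors, 7 of 10 (70%, against 39.7% of all probe sets) separated by set. Over all 3 families, C19, C20 and KO22 were all higher than C21, KO23 and KO24 in 9 genes and all lower in 4, 13 of 30 in all (43.3%, against 39.7% of all probe sets). The 9 were *Wnt5a* (0.50), *Lrp6* (0.48), *Fzd3* (0.40), *Fzd7* (0.34), *Fzd8* (0.32), *Wnt7b* (0.31), *Fzd5* (0.23), *Fzd1* (0.20) and *Fzd6* (0.13), of which 6 are Frizzled receptors. *Wnt1*, *Wnt3a*, *Wnt10a* and *Fzd10* were the 4 lower ones. *Wnt5a* read 9.96, 9.82 and 9.77 on the first set and 9.49, 9.32 and 9.25 on the second. Within the sets the deleted minus control difference of *Wnt5a* was -0.12 and -0.20, compared with -0.31 when the sets were ignored. For *Lrp6* these values were 0.02 and -0.52. With the set as a block no gene was called. C21, in the second set, also carried cardiac transcripts, with *Nppa* at 12.63 against 6.70 to 7.74 on the other Insig arrays and the 6 cardiac markers at 1.58 above the control mean. Their part in these values was not tested.

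**Figure D4:**
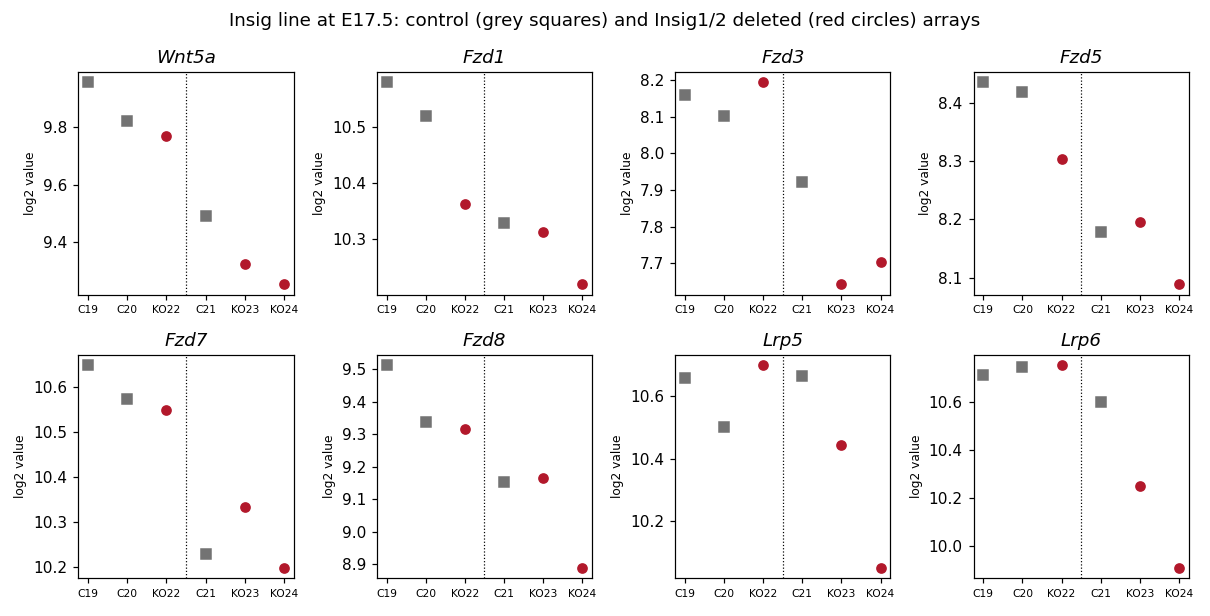
Log2 expression of *Wnt5a*, *Fzd1*, *Fzd3*, *Fzd5*, *Fzd7*, *Fzd8*, *Lrp5* and *Lrp6* on the 6 Insig arrays, ordered by set, with squares for control and circles for deleted lungs. *Wnt5a* reads 9.77 to 9.96 on C19, C20 and KO22 and 9.25 to 9.49 on C21, KO23 and KO24, with the deleted arrays below the controls inside each set.

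The change from E18.5 to PN1 in control lungs covers the passage through birth. *Wnt11* and *Wnt9a* rose, and they were the only genes of the 30 that were called (6.67%, against 2.69% of all probe sets). The median of the families was 0.03 against 0.01. All PN1 controls lay above all E18.5 controls in 6 genes (20%, against 17.5%) and below them in 4 (13.3%, against 16.7%). The 2 called genes were also those at an unadjusted p under 0.05 (6.67%, against 13.6%).

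*Wnt11*, a ligand of the planar polarity branch, read 7.92, 8.01 and 8.13 on C7 to C9 and 8.42, 8.56 and 8.59 on C13 to C15. The groups were clearly apart, and the rise was 0.50 (SE 0.10, 1.41-fold, adjusted p = 0.0274 in limma). The call was lost without C7, C8, C9, KO11, C14 or C15 in turn, with adjusted p up to 0.139 and a rise of 0.45 to 0.55. After median centring the adjusted p was 0.12. *Wnt9a* rose from 8.38, 8.33 and 8.32 to 8.65, 8.68 and 8.70, by 0.33 (SE 0.08, 1.25-fold, adjusted p = 0.0469 in limma). Values within each group differed by at most 0.06. This call held in 2 of the 12 fits that each left out 1 array, those without KO10 or KO16, and the adjusted p was 0.202 at most.

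*Wnt7a* also read higher at PN1, going from 8.41, 8.43 and 8.27 to 8.79, 8.85 and 8.83. The groups did not overlap, but the difference of 0.45 (SE 0.26) had an adjusted p of 0.565, since the spread was estimated over all 12 arrays, and 0.017 without KO16. *Wnt4* went from 7.99, 7.93 and 7.90 to 8.12, 8.09 and 8.27, a difference of 0.22 (SE 0.19, adjusted p = 0.784, limma). *Wnt8a* and *Fzd8* were the other genes with every PN1 control higher. The 4 with every PN1 control lower were *Wnt2* (-0.13), *Wnt7b* (-0.19), *Fzd2* (-0.13) and *Fzd10* (-0.20). *Wnt2* read 11.01, 10.95 and 11.01 at E18.5 and 10.83, 10.91 and 10.84 at PN1. Smooth muscle markers rose between the same arrays, 5 of 6 being called, with a median of 1.20. Their part in the rise of *Wnt11* and *Wnt9a* was not tested.

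In deleted lungs the change over the same interval was called in 10 genes of 30 (33.3%, against 37.8% of all probe sets). The share called was near that of all probe sets. Higher at PN1 were *Wnt4*, *Wnt9a*, *Wnt9b*, *Wnt10a*, *Wnt10b*, *Wnt11*, *Wnt16* and *Fzd9*, and lower were *Wnt2* and *Fzd7*. At an unadjusted p under 0.05 there were 14 genes (46.7%, against 52.6%). PN1 deleted arrays lay wholly above the E18.5 ones in 10 genes (33.3%, against 16.6%) and wholly below in 3 (10%, against 17.5%). The median was 0.12 against -0.03 over all probe sets, but after centring it was -0.06 against -0.20, and 18 genes in place of 10 were then below 0. After quantile normalization the median was 0.03 against -0.06, with 14 genes below 0, so the size of the shift depended on the scaling. Only *Wnt9a* and *Wnt9b* kept the call in all 12 fits that left out 1 array. Without KO11, KO12, KO17 or KO18 the called genes were 2, without KO17 and KO18 together 3, and without KO16 they were 19 (63.3%, against 72.1% of all probe sets).

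*Wnt9a* read 8.18, 8.06 and 7.96 on KO10 to KO12 and 8.51, 8.60 and 8.50 on KO16 to KO18. It rose by 0.47 (SE 0.08, 1.39-fold, adjusted p = 0.00362 in limma), and all 3 PN1 arrays, KO16 included, were alike. *Wnt9b* rose from 7.68, 7.63 and 7.71 to 7.93, 8.30 and 8.14, by 0.45 (SE 0.10, 1.37-fold, adjusted p = 0.0116). In controls *Wnt9b* went from 8.02, 7.90 and 7.89 to 7.86, 8.01 and 7.95, a difference of 0.00. *Wnt11* read 8.07, 7.99 and 7.85 at E18.5 and 8.50, 8.25 and 8.26 at PN1, with a rise of 0.36 (SE 0.10, adjusted p = 0.023). The groups were separate in all 3 ligands.

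*Wnt4* rose by the largest amount, from 7.79, 7.70 and 7.92 to 7.98, 8.90 and 8.68 (0.72, SE 0.19, adjusted p = 0.0206 in limma). KO16 was only just above the E18.5 arrays, and the second *Wnt4* probe set gave 0.23 with an adjusted p of 0.221. *Wnt10a* went from 7.83, 7.77 and 7.64 to 7.84, 8.20 and 8.29 (0.36, SE 0.12, adjusted p = 0.0344). Here KO16 was within 0.01 of KO10. *Wnt10b* went from 6.88, 6.93 and 6.83 to 7.24, 7.21 and 7.21 (0.34, SE 0.09, adjusted p = 0.0209), with KO16 level with the other 2 arrays.

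*Wnt16* read 6.55, 6.50 and 6.54 at E18.5 and 6.60, 7.01 and 6.95 at PN1, a rise of 0.32 (SE 0.10, adjusted p = 0.0343 in limma). *Fzd9* read 7.57, 7.65 and 7.49 and then 7.59, 8.16 and 8.19, a rise of 0.41 (SE 0.15, adjusted p = 0.0485). In both, KO16 stayed at the E18.5 level, and for *Fzd9* the groups overlapped and the call remained in 1 of the 12 fits that left out an array, the one without KO16. The adjusted p of *Fzd9* reached 0.177 in the other fits. *Wnt2* fell from 10.99, 11.01 and 11.18 to 10.97, 10.36 and 10.47 (-0.46, SE 0.14, adjusted p = 0.0281). KO16 again read close to E18.5. *Fzd7*, a receptor found in progenitor cells of many tissues, fell from 10.40, 10.18 and 10.16 to 10.01, 9.82 and 9.73 (-0.39, SE 0.11, adjusted p = 0.0238), with KO16 also below the E18.5 arrays.

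**Figure D5:**
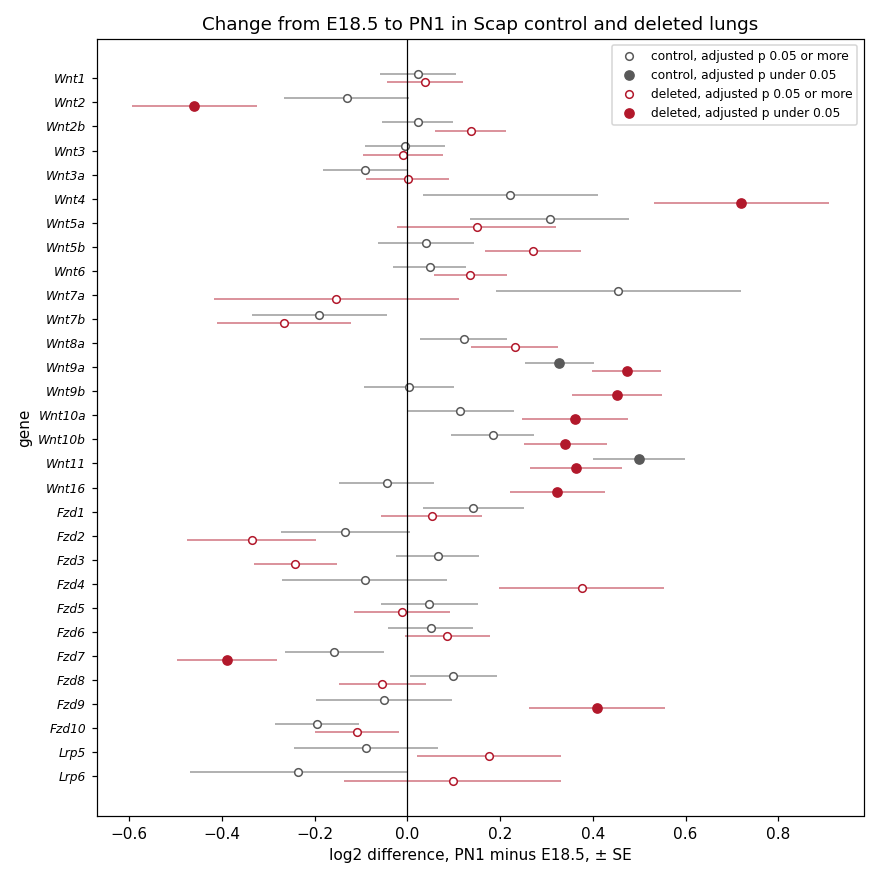
Log2 change from E18.5 to PN1 with its standard error for the 30 tested genes, in control (grey) and deleted (red) lungs, filled where the adjusted p is under 0.05. *Wnt11* (0.50 and 0.36) and *Wnt9a* (0.33 and 0.47) are filled in both colours, and 8 further genes in red only, which does not show that the genotypes differ.

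Whether the effect of *Scap* deletion differed between the ages was tested as an interaction, which is also the difference between the 2 birth changes. No gene of these families was called, and 0% of all probe sets were. At an unadjusted p under 0.05 there were 4 genes (13.3%, against 18.3%), *Wnt9b*, *Wnt16*, *Fzd9* and *Fzd3*. *Wnt9b* had the smallest p of them: its deletion effect was -0.26 at E18.5 and 0.18 at PN1, a difference of 0.45 (SE 0.14, unadjusted p 0.00811, adjusted p = 0.265 in limma). *Fzd9* differed by 0.46, *Wnt16* by 0.37 and *Fzd3* by -0.31. The families' median was 0.09 against -0.04 over all probe sets, and -0.09 against -0.21 after centring. After quantile normalization it was -0.08 against -0.07. Both its sign and its distance from all probe sets thus depended on the scaling. Without KO16, 11 genes were called (36.7%, against 58.2% of all probe sets). These were *Wnt4*, *Wnt5b*, *Wnt9b*, *Wnt10a*, *Wnt16*, *Fzd4* and *Fzd9* above 0 and *Wnt2*, *Wnt7a*, *Fzd2* and *Fzd3* below.

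The other genes of the pathway were taken from 7 lists of components. In the 3 deletion comparisons none of their genes was called. At E18.5 the lists were mostly below 0 as well. Among the noncanonical receptors and planar polarity genes 13 of 13 were (median -0.16), with *Ror1* (-0.28), *Ror2* (-0.21) and *Prickle1* (-0.21) separate. Of the nuclear genes 12 of 13 were (median -0.23), with *Bcl9* (-0.37) and *Pygo1* (-0.30), coactivators of β-catenin, below and *Cby1* (0.30), which antagonises it, above. Of the cytoplasmic genes 15 of 17 were (14 after centring, median -0.11), of the secreted and surface antagonists 12 of 14 (11 after centring, median -0.09) and of the R-spondins and their receptors 7 of 9 (6 after centring, median -0.08). Among the β-catenin target genes 11 of 12 were below 0 (median -0.13). *Ccnd1*, a driver of the cell cycle, differed by -0.34 (SE 0.10), *Axin2*, a negative feedback target, by -0.33 (SE 0.12) and *Lef1* by -0.26 (SE 0.13), with adjusted p of 0.51 to 0.554. *Porcn*, the ligand acyltransferase, stood at -0.19 and *Wls*, the ligand carrier, at 0.09.

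At PN1 the β-catenin targets were again lower in 11 of 12 (12 after centring), with a median of -0.29 against -0.06 over all probe sets. At an unadjusted p under 0.05 there were 8 of 12 (66.7%, against 32.3% of all probe sets). *Bmp4*, a growth factor of the distal lung, differed by -0.71 (SE 0.18, adjusted p = 0.0895 in limma), *Tnfrsf19* by -0.46 (SE 0.10, adjusted p = 0.0895) and *Axin2* by -0.42 (SE 0.12, adjusted p = 0.0907). All 3 were lower on every deleted array. The list averaged -0.11 on KO16, -0.36 on KO17 and -0.40 on KO18 against the control mean. Without KO17 and KO18 its median was -0.10, against -0.02 over all probe sets. Without KO16, 8 of 12 were called, all below 0 (66.7%, near the 61.7% of all probe sets). Among the antagonists *Sfrp1* (-0.79), *Dkk3* (-0.65) and *Wif1* (-0.53) were lower on every deleted array. *Prickle1* (-0.46), *Gsk3a* (-0.50) and *Dvl2* (-0.32) were so too, but the planar polarity list had 6 of 13 genes below 0 (10 after centring, median 0.00), with *Daam2* at 0.71 (SE 0.23, adjusted p = 0.0954, groups overlapping). Of the antagonists 10 of 14 were below 0 (13 after centring), of the cytoplasmic genes 12 of 17 (15 after centring) and of the nuclear genes 9 of 13 (11 after centring). Without KO17 and KO18 the median was -0.17 for the planar polarity list and -0.11 for the antagonists. It was -0.14 for the cytoplasmic and -0.18 for the nuclear genes. In the Insig line the planar polarity list had 12 of 13 genes below 0, where 45.0% of all probe sets were. Against the control mean the list averaged 0.01 on KO22, -0.18 on KO23 and -0.33 on KO24, with C21 at -0.06. The lower arrays were thus those of the second Insig set. *Gsk3b* (-0.29) and *Ror1* (-0.19) were lower on every deleted array, as 4.16% of all probe sets were.

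Between the ages, *Porcn* rose in both genotypes, by 0.36 in controls (SE 0.08, adjusted p = 0.0478 in limma) and by 0.43 in deleted lungs (adjusted p = 0.00711). It was the one gene of the lists called in controls, and there the call held in 2 of 12 fits that left out an array. In deleted lungs *Daam2*, a formin that works with Dishevelled, rose by 1.20 (SE 0.23, adjusted p = 0.00785). *Nkd1*, a Dishevelled-binding inhibitor and β-catenin target, fell by 0.68 (SE 0.11, adjusted p = 0.00378). The 3 calls of *Porcn*, *Daam2* and *Nkd1* in deleted lungs held in all 12 such fits. In controls *Nkd1* changed by -0.45 (adjusted p = 0.0576), *Lef1* by -0.47 (adjusted p = 0.0896) and *Axin2* by -0.36 (adjusted p = 0.168), each with every PN1 array lower but none of them called.

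In deleted lungs 7 of 12 β-catenin targets were called (58.3%, against 37.8% of all probe sets), *Nkd1*, *Axin2* (-0.46), *Lef1* (-0.38), *Id2* (-0.50) and *Bmp4* (-0.57) lower and *Ccnd1* (0.36) and *Nkd2* (0.28) higher. The other calls of the lists were *Dkk4* (0.30), *Sfrp5* (0.22) and *Sfrp1* (-0.64) among the antagonists, *Prickle2* (0.51) of the planar polarity genes, *Dvl1* (0.45) of the cytoplasmic genes, and *Tcf7l2* (0.35), *Tle1* (-0.23) and *Cby1* (-0.72) of the nuclear genes. Apart from *Porcn*, *Daam2* and *Nkd1*, each of these calls was lost on leaving out 1 or more single arrays, KO17 in every case. The birth changes and the deletion effects share arrays, so they are not independent of each other.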

How the data were processed

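Whole-lung RNA was hybridised to 18 Affymetrix Mouse Gene 1.0 ST arrays, and the authors analysed the arrays in GeneSpring GX 11.5. The deposited series table holds log2 expression values per probe set. Their summarization and normalization are not given in the sources used here. Probe sets were named from the platform annotation: 21789 had 1 symbol, 1621 several and 12146 none. Probe sets at or above the 35th percentile of the array on at least 12 of 18 arrays were kept (22717 of 35556, 63.9%).

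Group means were fitted with limma 3.58.1 in R 4.3.3 over the 12 *Scap* arrays and, separately, the 6 Insig arrays. Benjamini-Hochberg adjustment ran over all tested probe sets, and an adjusted p under 0.05 was called. A gene with several probe sets was taken by the one of highest mean. The steps were tested on simulated data without outlying arrays or array sets. That test therefore does not cover the effect of KO17, KO18 or the Insig sets on the calls. Every array is given for genes called in any comparison and for the 4 largest non-overlapping differences of each deletion comparison and of the control birth change. The gene families, pathway lists and rules were chosen with earlier results of these data known. Arrays have no read depth, and their number limits the precision. Alternatives covered the filter, scaling, samples fitted, moderation, weights and left-out arrays.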

Additional observations from a re-analysis of the deposited data

How the results depend on the processing

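The limits were 3 arrays a group, 2 PN1 deleted arrays that stood apart, and 2 Insig sets that crossed the genotype. No paired analysis was possible because each replicate number belongs to a single array. The count of called probe sets for ScapΔ/Δ against control at E18.5 was 2. It was 1 without a filter, with the 50th percentile filter, after quantile normalization, with only the 2 groups fitted, or without moderation. After median centring it was 0. It was 5 in a fit of all 18 arrays, 2003 with array weights (2 genes of the families), 21 without KO17 and KO18, and 0 to 93 with each array left out, none of them of the families. At PN1 the count of 2 became 18 without a filter, 2995 over all 18 arrays (2 genes of the families), 0 with only those groups, 1 without moderation, 15352 with weights (18 genes), 0 without KO17 and KO18, and 1 to 14011 with each array left out (0 to 14 genes), the highest without KO16. For Insig it was 8427 with weights (10 genes) and otherwise 0, leaving out each array included. For the interaction it was 14467 with weights (14 genes) and 0 to 13227 with each array left out (0 to 11 genes).

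The control birth change, with 611 probe sets, gave 310 after centring (0 genes of the families), 2572 with only those groups, 2681 with weights, 2513 without KO17 and KO18, and 158 to 2765 with each array left out (0 to 3 genes). Without a filter, or with a trended prior, 1 gene was called. The deleted birth change, with 8581, gave 77 with only those groups (0 genes), 17222 with weights (20 genes), 1409 without KO17 and KO18 (3 genes) and 1736 to 16375 with each array left out (2 to 19 genes). The deleted birth change of *Wnt7a* turned from -0.15 to 0.63 (adjusted p = 0.0255) without KO17 and KO18. Weights gave KO17 a weight of 11.1 and KO16 one of 0.0527. The cause of these shifts was not tested beyond the arrays left out.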
